A study of Mus musculus with 12 samples.

Results

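The dependence of the H2O2 response on Tgfbr2, the gene of the TGF-beta type II receptor, was measured as the difference between 2 responses. The response to H2O2 in Tgfbr2fl/fl proximal tubule (PT) cells was subtracted from the response in Tgfbr2-/- PT cells, gene by gene, over all 12 of the 12 RNA-seq libraries. This difference (the interaction) passed the test for 1321 of 12971 genes tested.

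The cells were conditionally immortalized PT cells from the kidneys of male mice. All of them carried H2ts6, the temperature-sensitive T antigen transgene of the Immorto-mouse, and floxed alleles of Tgfbr2. The 4 groups were H2ts6;Tgfbr2fl/fl cells in culture medium, H2ts6;Tgfbr2fl/fl cells given H2O2 in serum-free medium for 24 h, H2ts6;Tgfbr2-/- cells in culture medium, and H2ts6;Tgfbr2-/- cells given H2O2 in serum-free medium for 24 h, with 3 libraries each. The culture medium held serum, hydrocortisone, insulin, transferrin, selenium and T3. All cells had been moved, before the experiment, to the temperature that switches T antigen off, and interferon gamma, which drives the transgene, had been withdrawn. By the paper's methods, cells were starved of serum for 24 h before H2O2, so serum may have been absent for longer than the treatment. Because the treated cells were also without serum, H2O2 and serum withdrawal cannot be told apart. Whether the serum-free medium held hydrocortisone, insulin and the other additives is not stated, so their withdrawal cannot be told apart from H2O2 either. The word "response", and phrases such as "with H2O2" or "after H2O2", stand here for all of these together. The labels give the dose as 200 mM, whereas the unit in the methods is μM. Tgfbr2-/- cells were made from Tgfbr2fl/fl cells with an adenovirus carrying Cre in culture, and no further line of either genotype is among these libraries, so loss of the receptor and other differences between these lines cannot be told apart. Nothing in the labels says that replicates came from separate cultures, and p-values measure the spread between these libraries.

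TGF-beta brings the type II receptor together with the type I receptor, which it phosphorylates. The type I receptor then activates Smad proteins, which change transcription of genes for matrix, adhesion and growth control. The proximal tubule reabsorbs most of what the glomerulus filters, depends on mitochondrial respiration, and is a main target of oxidative injury. H2O2 is a membrane-permeant oxidant that cells remove with catalase, peroxiredoxins and glutathione peroxidases.

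The 12 libraries held between 15870155 and 20857618 counts on the transcripts that stood for genes. In a principal component analysis, 81.5% of the variance lay on the axis that set the genotypes apart and 9.16% on the axis that set treated from untreated libraries. Replicate 3 of untreated Tgfbr2fl/fl cells has a title that is abbreviated differently from its group and differed most from replicate 1 of its group. Without it, 1166 genes passed the interaction test, 1040 of them shared with the 1321. Tgfbr2 itself was counted in every library, at 9248, 8369 and 7562 normalized counts in untreated Tgfbr2fl/fl cells and at 6782, 6675 and 6358 in untreated Tgfbr2-/- cells. Counts were per transcript and not per exon, so this checks nothing about the deletion. The paper's methods state that deletion was verified by immunoblotting and RNA-seq. Of 22 PT markers, Slc22a6, Slc13a3 and Slc9a3 were at 0 in every library and Slc34a1, Slc22a8 and Hnf4a did not exceed 3 counts, whereas Lrp2, Aqp1, Pax2, Pax8 and Cdh16 were abundant. Of 8 epithelial markers all were detected in some library, and Krt8, Krt18, Krt19 and Tjp1 were counted in every one. In untreated Tgfbr2fl/fl cells Cldn4 was at 0, Epcam at 0, 1.11 and 0, Ocln at 0, 0 and 1.075, and Cdh1 at 1.05, 1.11 and 3.23 normalized counts. The same genes had 807, 869 and 833 (Cldn4), 729, 641 and 621 (Epcam), 212, 200 and 201 (Ocln) and 1118, 1046 and 1171 (Cdh1) in untreated Tgfbr2-/- cells. Of 10 leukocyte markers, Adgre1, C1qa, C1qb and Tyrobp were at 0 in every library, whereas Csf1r (714 to 942 normalized counts), Cd14 (142 to 467) and Cd68 (127 to 272) were counted in every one, and the list summed to between 1120 and 1525. Cd14 had a called interaction (0.71 on the log2 scale, adjusted p = 0.00121 by edgeR), and the part of such cells in the results was not tested. The markers of fibroblasts summed to at most 96 normalized counts in any library.

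Many genes responded in both genotypes. In Tgfbr2fl/fl cells 2729 genes rose (21.0% of those tested) and 2663 fell (20.5%), and in Tgfbr2-/- cells 2658 rose (20.5%) and 2477 fell (19.1%), by edgeR's quasi-likelihood test at an adjusted p under 0.05. Of the 3142 genes called in both genotypes, 3016 changed in the same direction (96.0%) and 126 in opposite directions. Across genes, which are not independent replicates, the responses of the 2 genotypes had a Pearson r of 0.573. The interaction was called for 10.2% of the genes tested, 506 with a more positive response in Tgfbr2-/- cells (3.90%) and 815 with a more negative one (6.28%). Most of these differences were small: 306 exceeded a fold of 1.5 and 99 a fold of 2. Without replicate 1 of H2O2-treated Tgfbr2-/- cells 833 genes were called (307 positive, 526 negative), and without replicate 2 of that group 878 (320 positive). Without replicate 1 of untreated Tgfbr2fl/fl cells 1680 were called, 1242 of them negative. The positive calls numbered 296 and 259 without replicate 2 and replicate 3 of H2O2-treated Tgfbr2fl/fl cells.

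Each of the 1321 genes was put into a class by whether its response passed the test in each genotype. The commonest class was a response in Tgfbr2fl/fl cells alone, with 509 genes, of which 343 rose and 166 fell. For 484 of these 509, the 95% interval of the response in Tgfbr2-/- cells lay within a fold of 1.5 on either side of no change. A response in Tgfbr2-/- cells alone was found for 381 genes, 197 up and 184 down, and for 351 of them the interval in Tgfbr2fl/fl cells lay within that range. Both genotypes responded, but in opposite directions, for 126 genes, of which 85 rose in Tgfbr2fl/fl and fell in Tgfbr2-/- cells. A weaker response of the same sign in Tgfbr2-/- cells was found for 178 genes (123 rises, 55 falls) and a stronger one for 107 (33 rises, 74 falls). For the remaining 20, neither response passed on its own. Single libraries moved these counts: without replicate 1 of H2O2-treated Tgfbr2-/- cells the class of Tgfbr2-/- cells alone held 221 genes, the weaker class 110 and the stronger class 65. Without replicate 2 of that group the first of these held 242 and the weaker class 117, and without replicate 2 of untreated Tgfbr2-/- cells the first held 245. The weaker class held 271 genes without replicate 1 of untreated Tgfbr2fl/fl cells, and the stronger class 65 without replicate 3 of H2O2-treated Tgfbr2fl/fl cells. With 1 library left out, the class of Tgfbr2fl/fl cells alone held between 340 and 725 genes and the opposite class between 84 and 188.

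**Figure D1:**
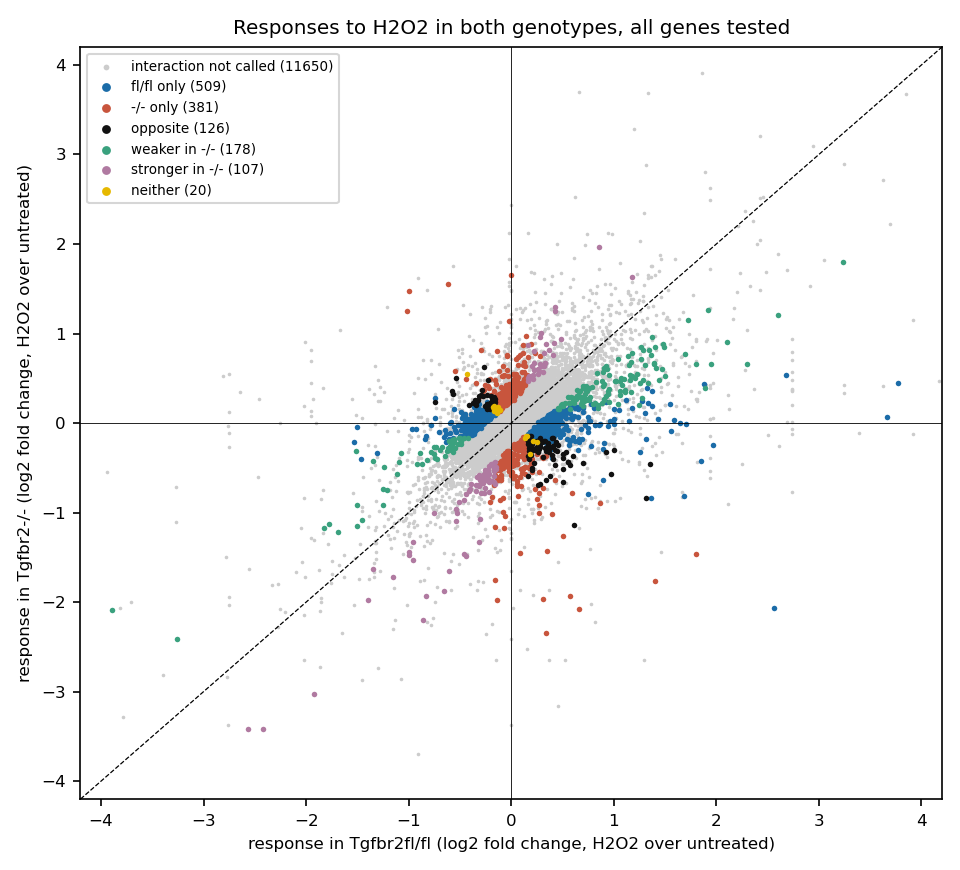
Log2 fold change of H2O2 over untreated in Tgfbr2fl/fl cells (x axis) and in Tgfbr2-/- cells (y axis) for the 12971 genes tested, 1 point a gene, with the 1321 genes whose interaction was called coloured by class; the dashed line marks equal responses, and 15 genes lie outside the axes. Most called genes lie below the dashed line (815 against 506 above it), and the class of Tgfbr2fl/fl cells alone spreads along the x axis.

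Genes that moved in opposite directions included a chemokine, a cytokine receptor and a collagen chain. Ccl17 (chr8:94809380-94812038, GRCm38.p6), a chemokine that attracts CCR4-bearing T cells, had 194, 219 and 255 normalized counts in the 3 untreated Tgfbr2fl/fl libraries and 323, 351 and 349.5 after H2O2. In Tgfbr2-/- cells it had 161, 194 and 175 before and 64.6, 89.6 and 86.5 after, so that treated and untreated libraries did not overlap in either genotype and the direction turned. The interaction of Ccl17, on the log2 scale, was -1.75 ± 0.18 (SE), adjusted p = 4.33e-08. Il6ra (chr3:89869324-89913196), the ligand-binding chain of the interleukin-6 receptor, went from 62.1, 61.2 and 51.6 to 106, 121 and 116 normalized counts in Tgfbr2fl/fl cells and from 199.7, 173 and 197 to 119, 138 and 124 in Tgfbr2-/- cells. The H2O2-treated groups thus lay close together, whereas the untreated groups were apart (interaction -1.54 ± 0.19 (SE), adjusted p = 1.58e-06). Lrp4, a receptor of the LDL receptor family, rose from 265, 225 and 231 to 478, 553 and 416 in Tgfbr2fl/fl cells and went from 268, 278 and 274 to 229.8, 184 and 256 in Tgfbr2-/- cells, where the fall was small (-0.30 on the log2 scale, adjusted p = 0.0324 by edgeR). Prkg2, the membrane-anchored cGMP-dependent protein kinase, rose from 73.6, 70.1 and 88.2 to 153, 142 and 144 in Tgfbr2fl/fl cells and fell from 269.8, 229.5 and 280.5 to 213, 214 and 194 in Tgfbr2-/- cells. Col6a1, a chain of the beaded-filament collagen VI, rose from 1274, 1175 and 925 to 1595, 1719.9 and 1473 in Tgfbr2fl/fl cells and fell from 373, 416 and 326 to 234, 228 and 244 in Tgfbr2-/- cells. For Lrp4, Prkg2 and Col6a1 the interactions were -1.31, -1.25 and -1.17, with adjusted p-values of 7.75e-07, 9.04e-06 and 6.1e-07 by edgeR. Both responses exceeded a fold of 1.5 for 2 of the 126 genes, Ccl17 and Cyp4b1, a cytochrome P450 that is named here after its values were seen. Cyp4b1 rose from 9.47, 7.79 and 14 to 28.4, 24.8 and 25.2 in Tgfbr2fl/fl cells and fell from 100.4, 69.7 and 77.5 to 41.5, 55 and 40.8 in Tgfbr2-/- cells.

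Of the genes that rose with H2O2 in Tgfbr2fl/fl cells alone, the 5 named by the size of the interaction were Tnfrsf18, Il1rl1, Fgfr3, Tmem37 and Il18r1. Il1rl1, the receptor of interleukin-33, had 201, 208 and 133 normalized counts in untreated and 466, 565 and 596 in H2O2-treated Tgfbr2fl/fl libraries. In Tgfbr2-/- cells it had 61.7, 46.5 and 53.6 before and 55.4, 62.9 and 44.8 after, with overlapping groups and a response of 0.03 (95% interval -0.39 to 0.45) on the log2 scale. Tnfrsf18, a receptor of the TNF receptor family, rose from 21, 21.1 and 29 to 73, 76.4 and 59.6 in Tgfbr2fl/fl cells and had 97.2, 116 and 102 (untreated) and 84.9, 95.1 and 116 (H2O2) in Tgfbr2-/- cells. The untreated Tgfbr2-/- libraries were thus already above the treated Tgfbr2fl/fl libraries for this gene. The same order held for Il18r1, the interleukin-18 receptor, which rose from 37.9, 50.1 and 34.4 to 102, 79.5 and 89.4 in Tgfbr2fl/fl cells and had 142, 161 and 159.9 (untreated) and 154, 149 and 168 (H2O2) in Tgfbr2-/- cells. It held too for Fgfr3, a fibroblast growth factor receptor, with 17.9, 14.5 and 11.8 (untreated) and 37.5, 35.1 and 37.8 (H2O2) in Tgfbr2fl/fl and 122, 123 and 92.9 (untreated) and 101, 97.5 and 101 (H2O2) in Tgfbr2-/- cells. Tmem37, a transmembrane protein, had 12.6, 8.9 and 9.68 (untreated) and 27.4, 40.3 and 16 (H2O2) in Tgfbr2fl/fl and 315, 289.5 and 292 (untreated) and 292, 301 and 336 (H2O2) in Tgfbr2-/- cells. The interactions were -1.55 for Il1rl1, -1.65 for Tnfrsf18, -1.13 for Il18r1, -1.49 for Fgfr3 and -1.38 for Tmem37. Without replicate 2 of H2O2-treated Tgfbr2fl/fl cells the call of Tmem37 was lost (adjusted p = 0.0718 by edgeR).

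Falls in Tgfbr2fl/fl cells alone were led by Ltbp1 (chr17:75005480-75392512, GRCm38.p6), which encodes a protein that holds latent TGF-beta in the matrix. Ltbp1 had 2004, 1763 and 1504 normalized counts in untreated and 616, 652 and 584 in H2O2-treated Tgfbr2fl/fl libraries. Both Tgfbr2-/- groups were lower than either of these and overlapped, with 172, 179 and 173 before and 186, 158 and 166 after, and the interaction was 1.47 ± 0.14 (SE), adjusted p = 2.23e-08. Lrrc75b, a leucine-rich repeat protein, showed the same order of groups, at 1252, 1205 and 1265 (untreated) and 461, 470.0 and 417 (H2O2) in Tgfbr2fl/fl cells and 77.4, 69.7 and 61.3 (untreated) and 70.2, 49.5 and 36.8 (H2O2) in Tgfbr2-/- cells. Socs2, an inhibitor of growth hormone and cytokine signalling, fell from 206, 188 and 231 to 82.2, 70.2 and 102 in Tgfbr2fl/fl cells and had 88.9, 69.7 and 61.3 (untreated) and 62.8, 54.2 and 56.7 (H2O2) in Tgfbr2-/- cells. Sh2d4a, an SH2 domain protein, fell from 563, 531 and 588 to 312, 252 and 321 in Tgfbr2fl/fl cells. Its level in Tgfbr2-/- cells was higher and did not separate by treatment, at 1371, 1442 and 1433 (untreated) and 1393, 1344 and 1316 (H2O2). Tmem252, a transmembrane protein, had 33.7, 40.1 and 34.4 (untreated) and 20.3, 15.5 and 19.5 (H2O2) in Tgfbr2fl/fl and 766, 748 and 776 (untreated) and 738, 731 and 710.0 (H2O2) in Tgfbr2-/- cells. The interactions were 1.06 for Lrrc75b, 0.97 for Socs2, 0.86 for Sh2d4a and 0.89 for Tmem252, the last lost without replicate 2 of H2O2-treated Tgfbr2fl/fl cells (adjusted p = 0.0587 by edgeR).

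A sodium channel subunit, a collagen and an interferon-induced enzyme were among the genes that fell in Tgfbr2-/- cells alone. Scnn1a (chr6:125314271-125344943, GRCm38.p6), the alpha subunit of the epithelial sodium channel, had 269, 262 and 285 normalized counts in untreated and 60.9, 70.8 and 77.6 in H2O2-treated Tgfbr2-/- libraries. In Tgfbr2fl/fl cells it had 65.2, 37.8 and 39.8 (untreated) and 64.9, 54.8 and 58.5 (H2O2), so that after H2O2 the 2 genotypes overlapped (interaction -2.28 ± 0.24 (SE), adjusted p = 1.29e-07). S100a7a, a calcium-binding protein of the psoriasin group, fell from 133, 151 and 175 to 32.3, 29.9 and 27.8 in Tgfbr2-/- cells against 12.6, 15.6 and 12.9 (untreated) and 13.2, 21.7 and 17.2 (H2O2) in Tgfbr2fl/fl cells. Col11a1, a chain of the fibrillar collagen XI, overlapped between treated and untreated Tgfbr2fl/fl cells, at 2680.5, 2314 and 2063 (untreated) and 2725, 2538 and 2208 (H2O2). In Tgfbr2-/- cells, where its level was far lower, it fell from 77.4, 93.9 and 71.8 to 31.4, 24.4 and 33.8. Oas3, an interferon-induced oligoadenylate synthetase, fell from 233, 275 and 278 to 145, 134 and 138 in Tgfbr2-/- cells and had 20, 33.4 and 22.6 (untreated) and 39.6, 25.8 and 25.2 (H2O2) in Tgfbr2fl/fl cells. Nrip3 fell from 411, 497 and 423 to 201, 224 and 232 in Tgfbr2-/- cells and had 14.7, 13.3 and 19.4 (untreated) and 26.4, 22.7 and 12.6 (H2O2) in Tgfbr2fl/fl cells. The interactions of S100a7a, Col11a1, Oas3 and Nrip3 were -2.69, -1.54, -1.18 and -1.41.

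Rises in Tgfbr2-/- cells alone were led by a secreted glycoprotein. Olfm1 (chr2:28193093-28230736, GRCm38.p6), a secreted glycoprotein with an olfactomedin domain, had 973, 911 and 866 (untreated) and 901, 926 and 874 (H2O2) normalized counts in Tgfbr2fl/fl cells, with overlapping groups. It rose from 61.7, 74.5 and 63.2 to 140.3, 141 and 162 in Tgfbr2-/- cells (interaction 1.17 ± 0.14 (SE), adjusted p = 8.75e-07) and stayed below every Tgfbr2fl/fl library. Lmcd1, a LIM domain cofactor of transcription, rose from 95.2, 80.4 and 115 to 176, 182 and 152 in Tgfbr2-/- cells and had 230.4, 240.4 and 271 (untreated) and 186, 242 and 175 (H2O2) in Tgfbr2fl/fl cells. Mylip encodes the ubiquitin ligase that sends the LDL receptor to degradation. Its untreated levels overlapped between the genotypes, at 145, 150.2 and 133 in Tgfbr2fl/fl and 157, 109 and 127 in Tgfbr2-/- cells, and after H2O2 they were 123, 146 and 122 and 221, 241 and 222. Napsa, an aspartic protease of lysosomes, had 203, 216 and 212 (untreated) and 353, 334 and 379.9 (H2O2) in Tgfbr2-/- and 37.9, 26.7 and 20.4 (untreated) and 26.4, 26.9 and 29.8 (H2O2) in Tgfbr2fl/fl cells. Tgtp2, an interferon-induced GTPase whose reads are shared with its near-identical copy Tgtp1 and whose count is therefore uncertain, had 23, 29 and 35.4 (untreated) and 52.6, 61.3 and 58.7 (H2O2) in Tgfbr2-/- and 81, 84.6 and 108 (untreated) and 113, 90.9 and 97.4 (H2O2) in Tgfbr2fl/fl cells. The interactions were 1.11 for Lmcd1, 0.94 for Mylip, 0.80 for Napsa and 0.83 for Tgtp2. Napsa passed the test in 6 of 19 alternative analyses and Tgtp2 in 7 of 19, and the calls were lost in 11 and in 9 of the 12 fits that left out 1 library.

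Where both genotypes responded in the same direction, the median size of the interaction was 0.46 on the log2 scale for the 178 weaker and 0.38 for the 107 stronger responses in Tgfbr2-/- cells. Zbtb16 (chr9:48651797-48836225, GRCm38.p6), a zinc finger repressor induced by glucocorticoids, fell from 748, 729 and 692 to 47.7, 41.3 and 57.3 normalized counts in Tgfbr2fl/fl cells and from 1098, 1023 and 1077 to 234, 247 and 274 in Tgfbr2-/- cells. The response was -3.89 in the former and -2.08 in the latter on the log2 scale (interaction 1.81 ± 0.15 (SE), adjusted p = 4.32e-10). Mest, an imprinted gene of the alpha/beta hydrolase family, rose from 174, 152 and 143 to 759, 756 and 794 in Tgfbr2fl/fl and from 269, 260.4 and 256 to 399.7, 399 and 448 in Tgfbr2-/- cells. Cyp1b1, a cytochrome P450 induced through the aryl hydrocarbon receptor, rose from 203, 191 and 144 to 668, 664 and 672 in Tgfbr2fl/fl and from 972, 917 and 931 to 1170.5, 1198 and 1342 in Tgfbr2-/- cells, where it was already higher before H2O2. Plekha4, a phosphoinositide-binding adaptor, rose from 72.6, 59 and 71 to 374, 439 and 421 in Tgfbr2fl/fl and from 25.1, 26.1 and 41.2 to 66.5, 64.5 and 85.5 in Tgfbr2-/- cells. Lipg, endothelial lipase, rose from 625, 583 and 552 to 2281, 2294 and 2231 in Tgfbr2fl/fl and from 2008, 1933 and 1975 to 3056, 3004 and 3287 in Tgfbr2-/- cells. Each of these 4 rises was present in all libraries of both genotypes, with no overlap between treated and untreated cells. Their interactions were -1.63 for Mest, -1.50 for Cyp1b1, -1.40 for Plekha4 and -1.29 for Lipg.

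Stronger responses in Tgfbr2-/- cells were mostly falls. Sgk1 (chr10:21882184-21999903, GRCm38.p6), a kinase induced by serum and glucocorticoids that activates the epithelial sodium channel, fell from 646, 679 and 712 to 179, 158 and 201 normalized counts in Tgfbr2fl/fl cells. In Tgfbr2-/- cells it fell from 1347, 1374 and 1307 to 177, 155 and 162, so that the genotypes overlapped after H2O2 and differed before (interaction -1.10 ± 0.12 (SE), adjusted p = 2.93e-07). Tagln, the actin-binding protein transgelin, fell from 687, 691 and 756 to 402, 407 and 392 in Tgfbr2fl/fl and from 574, 609 and 480.5 to 134, 147 and 153 in Tgfbr2-/- cells. Id1, an inhibitor of basic helix-loop-helix factors and a target of BMP and TGF-beta signals, fell from 437, 511 and 504 to 391, 345 and 332 in Tgfbr2fl/fl and from 856, 767 and 666 to 293, 263 and 264 in Tgfbr2-/- cells. The interactions of Tagln and Id1 were -1.11 and -1.04. Kif17, a kinesin motor, had 18.9, 28.9 and 18.3 (untreated) and 15.2, 11.4 and 9.17 (H2O2) in Tgfbr2fl/fl and 162, 136 and 136 (untreated) and 26.8, 33.8 and 32.8 (H2O2) in Tgfbr2-/- cells (interaction -1.34). Slit2, a secreted guidance protein, rose from 47.3, 27.8 and 23.7 to 52.8, 58.9 and 68.8 in Tgfbr2fl/fl and from 71.1, 39.7 and 68 to 235, 252 and 209 in Tgfbr2-/- cells (interaction 1.11). The call of Kif17 was lost without replicate 1 of H2O2-treated or replicate 3 of untreated Tgfbr2fl/fl cells (adjusted p = 0.123 and 0.0525 by edgeR), and without replicate 1 of treated or of untreated Tgfbr2-/- cells (0.0632 and 0.0538). That of Slit2 was lost with counts summed over transcripts (adjusted p = 0.0720), without replicate 1 of untreated Tgfbr2fl/fl cells (adjusted p = 0.159) and without replicate 2 of untreated Tgfbr2-/- cells (0.0566).

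**Figure D2:**
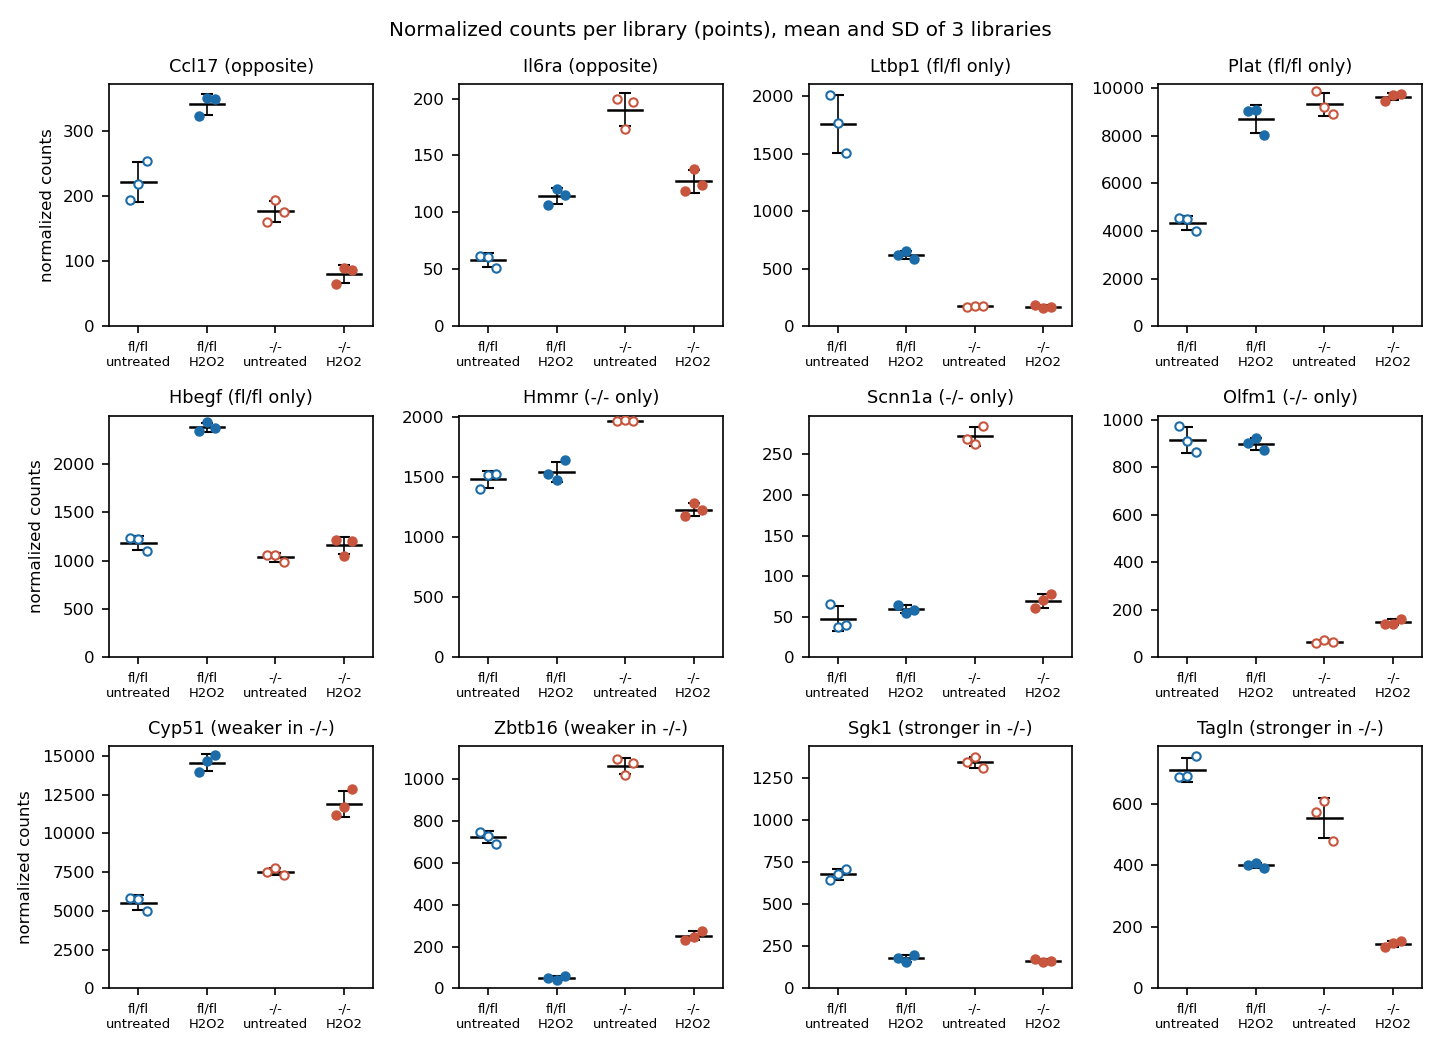
Normalized counts (y axis, from 0) of 12 genes in each library, with 3 open points per untreated group and 3 filled points per H2O2-treated group, Tgfbr2fl/fl in blue and Tgfbr2-/- in red, and the mean and SD of each group in black. Ccl17 and Il6ra turn direction between genotypes, Ltbp1, Plat and Hbegf move in Tgfbr2fl/fl cells, Hmmr, Scnn1a and Olfm1 move in Tgfbr2-/- cells, and the lowest row shows responses shared in direction but unequal in size.

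Genes of cholesterol synthesis and uptake rose with H2O2 in both genotypes and rose less in Tgfbr2-/- cells. Cells that are short of sterols release SREBP-2 from the endoplasmic reticulum, and it switches on the enzymes from acetyl-CoA to cholesterol together with the LDL receptor. All 26 members of the list rose in Tgfbr2fl/fl cells (background 21.0%), and 25 rose and 1 fell in Tgfbr2-/- cells (20.5% and 19.1%). The median response was 1.11 in Tgfbr2fl/fl and 0.56 in Tgfbr2-/- cells on the log2 scale. The interaction was called for 21 of 26, all of them negative, against 6.28% of all genes tested. The median interaction was -0.57 against 0.01 over all genes, and all 26 had a negative sign, as did 47.3% of all genes. Leaving out any 1 library left between 19 and 23 calls.

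Cyp51 (chr5:4080674-4104697, GRCm38.p6), which removes a methyl group from lanosterol, had 5853, 5759.8 and 4989 normalized counts in untreated and 13968, 14649 and 15060 in H2O2-treated Tgfbr2fl/fl libraries. In Tgfbr2-/- cells it rose from 7509.5, 7770.4 and 7307 to 11188, 11715 and 12855. Every untreated Tgfbr2-/- library was above every untreated Tgfbr2fl/fl library, and after H2O2 the order was the reverse (interaction -0.73 ± 0.10 (SE), adjusted p = 3.37e-06). Nsdhl, a sterol dehydrogenase of the same late steps, rose from 1220.3, 1161 and 1024 to 2929, 2955 and 3051 in Tgfbr2fl/fl and from 1382, 1395 and 1351 to 2147, 2104 and 2342 in Tgfbr2-/- cells. Pmvk, the phosphomevalonate kinase of the early mevalonate steps, was the member that turned direction. It rose from 997, 1010.4 and 1037 to 1373, 1374 and 1289 in Tgfbr2fl/fl cells and fell from 2496, 2643 and 2542 to 2148, 2079.6 and 2183 in Tgfbr2-/- cells, where its untreated level was the highest of the 4 groups. The interactions were -0.72 for Nsdhl and -0.67 for Pmvk. The members without a call were Srebf2, which encodes SREBP-2, Ebp, Lpin1, Fdps and Stard4.

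The promoters of these genes are shown because the list moved together. The letters CCAAT, the site of the factor NF-Y that acts beside SREBP-2 at sterol-responsive promoters, were searched on both strands in windows of 300 bases around each RefSeq transcription start (GRCm38.p6). They were in the windows of 16 of the 18 list genes that the promoter table held (88.9%) and of 41.1% of all genes in it. That share counts genes whether or not they were tested here, and a share over the tested genes alone was not computed. The windows of mitosis genes held them in 25 of 34 (73.5%) and those of DNA replication genes in 21 of 34 (61.8%). Shown are stretches of 80 bases that lie upstream of the start, with the match in capitals (ATTGG is CCAAT read on the other strand), from chr5:4104698-4104777 (minus strand) for Cyp51, chrX:72918441-72918520 (plus strand) for Nsdhl and chr3:89454367-89454446 (plus strand) for Pmvk, whose other window held no match. A match is a description of the letters and not a measured site.
Cyp51: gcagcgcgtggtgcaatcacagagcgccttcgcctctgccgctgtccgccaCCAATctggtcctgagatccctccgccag
Nsdhl: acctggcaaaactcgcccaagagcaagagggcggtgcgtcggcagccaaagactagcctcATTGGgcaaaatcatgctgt
Pmvk: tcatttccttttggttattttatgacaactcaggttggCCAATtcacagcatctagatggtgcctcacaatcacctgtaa

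Genes of mitosis fell with H2O2 in Tgfbr2-/- cells more than in Tgfbr2fl/fl cells, whereas genes of DNA replication did not show this. The mitosis list holds motors, kinetochore proteins, checkpoint kinases and cyclins that are made late in the cell cycle. Of its 40 members 39 fell in Tgfbr2-/- cells (background 19.1%) and 26 in Tgfbr2fl/fl cells (20.5%). The median response was -0.22 in Tgfbr2fl/fl and -0.55 in Tgfbr2-/- cells. The interaction was negative and called for 31 of 40, against 6.28% of all genes, with a median of -0.33, and all 40 had a negative sign. Of the 31, 13 responded in Tgfbr2-/- cells alone and 18 more strongly there. With 1 library left out, between 20 and 33 were called, the lowest without replicate 1 of H2O2-treated Tgfbr2-/- cells. Summed over the list, normalized counts were 91233, 89875 and 94101 in untreated and 82434, 80878 and 84421 in treated Tgfbr2fl/fl libraries, and 97681, 96519 and 99301 in untreated and 66928, 67082 and 68924 in treated Tgfbr2-/- libraries. In bulk RNA, fewer cells in mitosis and less of these RNAs per cell cannot be told apart.

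Hmmr (chr11:40701388-40733464, GRCm38.p6), a spindle protein that also binds hyaluronan, had 1965, 1969 and 1960.5 normalized counts in untreated and 1170.5, 1282 and 1226 in treated Tgfbr2-/- libraries. In Tgfbr2fl/fl cells the groups overlapped, at 1399, 1517 and 1523 (untreated) and 1519.8, 1471 and 1635 (H2O2) (interaction -0.74 ± 0.09 (SE), adjusted p = 4.46e-07). Cenpa, the centromeric histone H3 variant, had 1052, 892 and 980.2 (untreated) and 593, 710.0 and 702 (H2O2) in Tgfbr2-/- cells against 774, 750.0 and 673 (untreated) and 708, 892 and 938 (H2O2) in Tgfbr2fl/fl cells. Kif20b and Kif11 are kinesins that act in cytokinesis and in building the bipolar spindle. Kif20b fell from 3649.7, 3765 and 3895 to 2412, 2623 and 2521 in Tgfbr2-/- cells and had 2750.0, 2784 and 3011 (untreated) and 2641, 2584 and 2732 (H2O2) in Tgfbr2fl/fl cells. Kif11 fell from 3071, 2807 and 3028 to 1915, 1858 and 1893 in Tgfbr2-/- and from 2148, 2256 and 2442 to 2136, 1888 and 2002 in Tgfbr2fl/fl cells. The interactions were -0.75 for Cenpa, -0.48 for Kif20b and -0.47 for Kif11.

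Of 43 DNA replication genes, which encode the helicase, polymerases and nucleotide enzymes of S phase, 4 had a called interaction, all positive (background 3.90%), and the median was 0.0022. Negative signs numbered 21 and positive signs 22. With 1 library left out, between 0 and 4 were called, with 0 by edgeR without replicate 3 of H2O2-treated Tgfbr2fl/fl cells or replicate 2 of H2O2-treated Tgfbr2-/- cells. Without replicate 1 of untreated Tgfbr2fl/fl cells 1 of the calls was negative. With all libraries the 4 were Gins2 and Mcm2, subunits of the replicative helicase (0.38 and 0.33), Mcm4, another subunit (0.28), and E2f1, a factor that turns on S-phase genes (0.31). Mcm2 had 6482, 6415 and 6944 (untreated) and 6546, 6041 and 5923 (H2O2) in Tgfbr2fl/fl and 6491, 5927 and 6715 (untreated) and 7519, 7848 and 7049.5 (H2O2) in Tgfbr2-/- cells. Leaving out 1 library ended the call of Gins2 in 3, of Mcm2 in 4, of Mcm4 in 8 and of E2f1 in 9 of 12 fits, with adjusted p-values up to 0.0778, 0.0908, 0.164 and 0.149 over all alternatives by edgeR or DESeq2.

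The letters TTTGAA, known as the cell cycle genes homology region (CHR) at promoters of genes expressed in mitosis, were searched on both strands in the same windows. They were in the windows of 25 of 34 mitosis genes in the promoter table (73.5%) and of 5 of 34 DNA replication genes (14.7%). The share was 1 of 18 for cholesterol genes (5.56%) and 20.2% for all genes in that table, tested here or not. Among the mitosis genes, 21 of 27 with a called interaction held them and 4 of 7 without. The variant TTCGAA was in 3 of 34 mitosis genes (8.82%) and in 1.80% of all genes. Shown are 30 bases around the match nearest the start, with the match in capitals (TTCAAA is TTTGAA on the other strand), at chr11:40733412-40733441 (minus strand) for Hmmr, chr5:30666890-30666919 for Cenpa, chr19:34922353-34922382 for Kif20b and chr19:37376351-37376380 for Kif11 (plus strand). The first base of the match lies 8, 16 and 7 bases downstream of the start in Hmmr, Cenpa and Kif20b and 19 bases upstream in Kif11, and Kif20b holds the letters 2 times in a row. No binding was measured.
Hmmr: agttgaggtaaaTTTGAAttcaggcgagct
Cenpa: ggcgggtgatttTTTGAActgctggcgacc
Kif20b: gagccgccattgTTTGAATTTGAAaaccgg
Kif11: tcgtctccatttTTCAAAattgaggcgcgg

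**Figure D3:**
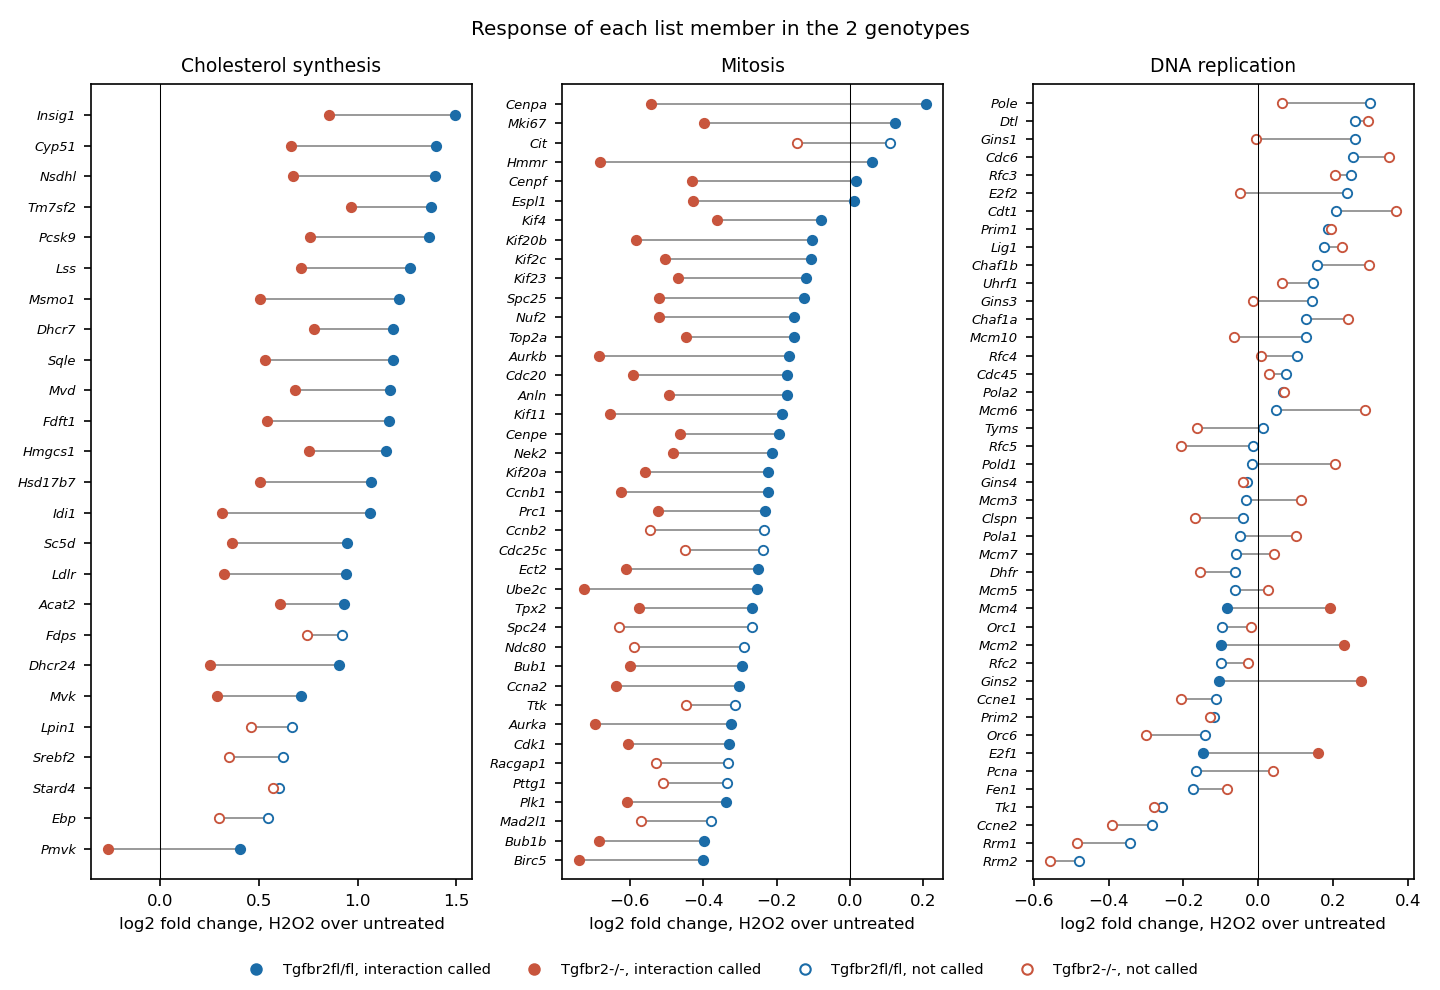
Log2 fold change of H2O2 over untreated (x axis) for members of 3 gene lists, in Tgfbr2fl/fl cells (blue) and Tgfbr2-/- cells (red) joined by a line, with filled points where the interaction was called. Every cholesterol gene shown (25 of the 26 tested) and all 40 mitosis genes have the red point to the left of the blue one, whereas the DNA replication genes are split (21 to the left, 22 to the right).

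Collagens as a list responded more negatively in Tgfbr2-/- cells. Collagens I, V and XI form fibrils, collagen IV the network of basement membranes, and collagen VI beaded filaments. Of 21 tested members 15 rose and 1 fell in Tgfbr2fl/fl cells (background 21.0% and 20.5%), and 7 rose and 6 fell in Tgfbr2-/- cells (20.5% and 19.1%). The median response was 0.51 in Tgfbr2fl/fl and -0.0016 in Tgfbr2-/- cells. The interaction was called for 10, all negative, with a median of -0.53 (background 6.28%), and 20 of 21 had a negative sign. The call count was 6 without replicate 1 of untreated Tgfbr2-/- cells and between 6 and 14 over all libraries left out. Before treatment, the median difference of Tgfbr2-/- from Tgfbr2fl/fl cells over the list was -1.57 on the log2 scale. The groups of Col4a1, an alpha chain of the basement membrane network, did not overlap by genotype: it had 38574, 35700 and 29908 and 45039, 46831 and 38822 normalized counts in untreated and treated Tgfbr2fl/fl cells and 4672, 4253 and 4122 (untreated) and 3544, 3456 and 3779.8 (H2O2) in Tgfbr2-/- cells (interaction -0.60 ± 0.12 (SE), adjusted p = 0.000772). Col5a2, a chain that limits fibril width, had 37454, 33777 and 29314 (untreated) and 34809, 36435 and 32168 (H2O2) in Tgfbr2fl/fl cells, with overlapping groups, and fell from 4283, 3968 and 3504 to 2571, 2516 and 2711 in Tgfbr2-/- cells (interaction -0.63). With Col6a1 and Col11a1 above, these were the members with the smallest adjusted p.

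Among 42 TGF-beta targets and pathway genes the calls were 1 positive and 12 negative (background 3.90% and 6.28%), and the median interaction was -0.06. Besides Tagln and Id1 the leading members were Fn1 and Tgfbr2. Fn1, fibronectin, had 122877, 94822 and 91292 (untreated) and 101717, 120871 and 98611 (H2O2) normalized counts in Tgfbr2fl/fl cells, which overlapped, and fell from 9684, 8793 and 9079.7 to 5761, 5738 and 6119.7 in Tgfbr2-/- cells, where both groups were lower than any Tgfbr2fl/fl library (interaction -0.70 ± 0.13 (SE), adjusted p = 0.000456). Tgfbr2 transcript rose to 13275, 13918 and 13707 in Tgfbr2fl/fl cells and had 7221, 7311 and 7116 after H2O2 in Tgfbr2-/- cells, where its response did not pass the test (0.13 against 0.70, interaction -0.57, adjusted p = 7.85e-05 by edgeR). The classical targets Ccn2 and Postn fell in both genotypes and had no called interaction, at responses of -1.47 and -1.35 for Ccn2 and -1.15 and -1.16 for Postn in Tgfbr2fl/fl and Tgfbr2-/- cells. These 2 were named after their values were seen.

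Of the regulators of matrix breakdown, Plat, Mmp15 and Timp1 rose in Tgfbr2fl/fl cells alone. Plat, tissue plasminogen activator, had 4552, 4494 and 3998 normalized counts in untreated and 9038, 9078 and 8042 in treated Tgfbr2fl/fl libraries, and 9860.3, 9201 and 8894 (untreated) and 9461, 9708 and 9736 (H2O2) in Tgfbr2-/- cells (interaction -0.96 ± 0.09 (SE), adjusted p = 2.23e-08). The untreated Tgfbr2-/- libraries were thus at about the level that Tgfbr2fl/fl cells reached after H2O2. Mmp15, a membrane-bound metalloproteinase, rose from 488, 494 and 417 to 791, 836 and 730.0 in Tgfbr2fl/fl cells and had 654, 624 and 561 (untreated) and 628, 570.0 and 569.8 (H2O2) in Tgfbr2-/- cells. Serpine2, an inhibitor of thrombin and plasminogen activators, rose from 132, 96.8 and 79.6 to 122, 146 and 149 in Tgfbr2fl/fl cells, with overlapping libraries, and fell from 549, 513 and 427 to 386, 345 and 344 in Tgfbr2-/- cells. Timp1, an inhibitor of metalloproteinases, rose from 902, 937 and 811 to 1082, 1076 and 1199.9 in Tgfbr2fl/fl and had 525, 429.9 and 439 (untreated) and 429, 359 and 433 (H2O2) in Tgfbr2-/- cells. The interactions were -0.81, -0.90 and -0.54 for Mmp15, Serpine2 and Timp1. In all, 1 of 20 members was called positive and 4 negative (background 3.90% and 6.28%), and the median interaction was -0.20. Without replicate 1 of untreated Tgfbr2fl/fl cells 9 were called negative.

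The Notch list, receptors and ligands of contact signalling with their modifiers, had 1 positive and 3 negative calls of 15 (background 3.90% and 6.28%), with a median of -0.35. Lfng, the fringe glycosyltransferase that tunes ligand choice, rose from 4102, 4018 and 3251 to 4525, 4610.1 and 4702 in Tgfbr2fl/fl cells and fell from 1143, 1153 and 1030.0 to 682, 668 and 732 in Tgfbr2-/- cells (interaction -0.96 ± 0.10 (SE), adjusted p = 1.29e-07). The ligand Jag2 rose from 210.4, 245 and 174 to 278, 312 and 262 in Tgfbr2fl/fl and fell from 1594, 1388 and 1416 to 1278, 1244 and 1287 in Tgfbr2-/- cells, where every library was above every Tgfbr2fl/fl library (interaction -0.65). The receptor Notch1 had 4631, 3886 and 3205 (untreated) and 5518, 6474 and 5328 (H2O2) in Tgfbr2fl/fl and 6305, 5492 and 5578 (untreated) and 6556, 5913 and 6479.7 (H2O2) in Tgfbr2-/- cells (interaction -0.44), a call lost under DESeq2 (adjusted p = 0.127), with counts summed over transcripts (0.0713) and without each of 3 libraries, the replicates 2 of both treated groups and replicate 1 of untreated Tgfbr2-/- cells (0.0690, 0.0686 and 0.0673). Dtx4, an E3 ligase of the pathway, fell in both, from 3445, 3459.6 and 3659 to 2122, 2161 and 2102 in Tgfbr2fl/fl and from 3585, 3345 and 3432 to 2654, 2661 and 2544 in Tgfbr2-/- cells (interaction 0.33).

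The mRNAs encoded by mtDNA include those for subunits of complexes I, III and IV of the respiratory chain. They rose in Tgfbr2fl/fl cells and did not rise as a group in Tgfbr2-/- cells. Of 13 such mRNAs 7 were tested. All 7 rose with H2O2 in Tgfbr2fl/fl cells (background 21.0%), and in Tgfbr2-/- cells 1 rose and 1 fell (20.5% and 19.1%). The median response was 0.36 in Tgfbr2fl/fl and -0.12 in Tgfbr2-/- cells, and 5 of 7 interactions were called, all negative (background 6.28%), with a median of -0.49. These counts rest on single libraries: 3 of 7 were called without replicate 1 of H2O2-treated Tgfbr2-/- cells and 3 of 7 without replicate 2 of untreated Tgfbr2-/- cells. mt-Nd4, a core subunit of complex I, had 44732, 49474 and 41273 normalized counts in untreated and 53429, 57438 and 67439 in treated Tgfbr2fl/fl libraries, and 47588, 54464 and 53878 (untreated) and 45246, 50902 and 50243 (H2O2), which overlap, in Tgfbr2-/- cells (interaction -0.49 ± 0.12 (SE), adjusted p = 0.0076). mt-Nd5, another subunit of complex I, went from 121543, 131331 and 114361 to 141158, 156186 and 173277 in Tgfbr2fl/fl and from 128833, 141078 and 148242 to 110781, 134784 and 129902 in Tgfbr2-/- cells (interaction -0.51). mt-Co1, a core subunit of complex IV, rose from 261831, 294445 and 258386 to 299598, 313936 and 356553 in Tgfbr2fl/fl and fell from 320989, 377668 and 389110 to 272502, 323936 and 306586 in Tgfbr2-/- cells by the test (0.25 and -0.27), although libraries of the treated and untreated Tgfbr2-/- groups overlapped. The interaction of mt-Co1 was -0.52 and was lost without replicate 1 of H2O2-treated Tgfbr2-/- cells (adjusted p = 0.0583 by edgeR). mt-Nd6, the complex I subunit read from the other strand, had an interaction of -0.62 and was lost under DESeq2 (adjusted p = 0.102), with counts summed over transcripts (0.0547) and without replicate 2 of untreated Tgfbr2-/- cells (adjusted p = 0.0571). Reads of nuclear copies of mtDNA cannot be told apart from these.

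Nuclear genes of complex I showed no called difference: 0 of 36 passed by edgeR (background 10.2%) and 0 by DESeq2, 2 had an unadjusted p under 0.05, and the median interaction was 0.05. Fatty acid oxidation, the main fuel pathway of the proximal tubule, had 5 positive and 1 negative calls of 28 (background 3.90% and 6.28%), with a median of 0.17, and 3 positive without replicate 2 of H2O2-treated Tgfbr2fl/fl cells. Slc25a20, the carrier that takes acylcarnitines into mitochondria, had 419, 405 and 382 (untreated) and 435, 479 and 406 (H2O2) normalized counts in Tgfbr2fl/fl cells and rose from 306, 281 and 328 to 487, 489 and 448 in Tgfbr2-/- cells (interaction 0.51 ± 0.12 (SE), adjusted p = 0.00521). Ppargc1a, the coactivator of mitochondrial biogenesis, rose from 395, 417 and 465 to 570.5, 601 and 578 in Tgfbr2-/- cells and had 85.2, 85.7 and 89.3 (untreated) and 81.2, 44.4 and 80.2 (H2O2) in Tgfbr2fl/fl cells. Its interaction of 0.80 lost its call without replicate 2 of H2O2-treated Tgfbr2fl/fl cells (adjusted p = 0.0501 by edgeR). Acadl, the long-chain acyl-CoA dehydrogenase, fell from 1752, 1895 and 1757 to 1642, 1397 and 1485 in Tgfbr2fl/fl cells and had 1962, 2026 and 2075 (untreated) and 2179, 2127 and 2185 (H2O2) in Tgfbr2-/- cells. Cpt1c, a brain-type homologue of the carnitine palmitoyltransferases, was the negative call and rose from 1744, 1675 and 1502 to 2139, 2412 and 2275 in Tgfbr2fl/fl cells against 2329, 2188 and 2057 (untreated) and 2346, 2272 and 2495 (H2O2) in Tgfbr2-/- cells. The interactions of Acadl and Cpt1c were 0.35 and -0.36.

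Glycolysis and hypoxia genes fell in both genotypes, 20 of 34 in each (background 20.5% and 19.1%), with median responses of -0.52 in Tgfbr2fl/fl and -0.32 in Tgfbr2-/- cells. The interaction was called for 5, all positive (background 3.90%), with a median of 0.09. Positive calls numbered 3 without replicate 2 or 3 of treated or of untreated Tgfbr2fl/fl cells, replicate 1 or 2 of treated Tgfbr2-/- cells or replicate 1 of untreated Tgfbr2-/- cells. Negative calls numbered 3 without replicate 1 of untreated Tgfbr2fl/fl cells. There was 1 negative call without replicate 1 and 1 without replicate 3 of treated Tgfbr2fl/fl cells. Hk1 and Hk2, the hexokinases that trap glucose in the cell, fell in Tgfbr2fl/fl cells alone. Hk1 went from 1859, 1902 and 1918 to 1439, 1354 and 1272 in Tgfbr2fl/fl and had 3112, 2912 and 3252 (untreated) and 3120.0, 3047 and 2972 (H2O2) in Tgfbr2-/- cells (interaction 0.46 ± 0.08 (SE), adjusted p = 0.000433), and Hk2 went from 635, 562 and 645 to 429, 420.4 and 453 and had 602, 577 and 591 (untreated) and 561, 548 and 635 (H2O2) (interaction 0.48). Aldoa, an aldolase, fell in both, from 6201, 6658 and 7083 to 4271, 3879.8 and 4200.2 in Tgfbr2fl/fl and from 8698, 8419 and 8510.1 to 6918, 7083 and 6838 in Tgfbr2-/- cells (interaction 0.39). Egln1, the oxygen-sensing prolyl hydroxylase of HIF, had an interaction of 0.29, lost in 8 of the 12 fits without 1 library (adjusted p up to 0.174 over all alternatives by edgeR or DESeq2).

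Targets of FoxO factors, which growth factor signalling keeps out of the nucleus, had 6 positive and no negative calls of 23 (background 3.90%), with a median of 0.17. Cited2, a cofactor that competes with HIF for p300, fell from 3061, 3074 and 3161 to 2416, 2218 and 2331 normalized counts in Tgfbr2fl/fl cells and rose from 2455, 2340.0 and 2454 to 2889, 2766 and 2670.0 in Tgfbr2-/- cells (interaction 0.62 ± 0.08 (SE), adjusted p = 3.35e-06). Bcl6, a transcriptional repressor, showed the same turn of direction, with responses of -0.20 and 0.30. Bcl2l11, the pro-apoptotic protein Bim, had 880.5, 802 and 849.6 (untreated) and 785, 788 and 777 (H2O2) in Tgfbr2fl/fl and rose from 867, 868 and 852 to 1146, 1102 and 978 in Tgfbr2-/- cells. Map1lc3b, the LC3B protein of autophagosomes, had 1854, 2136 and 1969 (untreated) and 2097, 1814 and 1933 (H2O2) in Tgfbr2fl/fl and rose from 1309, 1427 and 1323 to 1794, 1654 and 1572 in Tgfbr2-/- cells. The interactions were 0.50, 0.43 and 0.33, the last lost in 5 of the 12 fits without 1 library (adjusted p up to 0.0994 over all alternatives by edgeR or DESeq2). The list held 3 positive calls without replicate 2 or replicate 3 of H2O2-treated Tgfbr2fl/fl cells and without replicate 1 of treated or of untreated Tgfbr2-/- cells, and 3 positive and 1 negative with counts summed over transcripts.

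**Figure D4:**
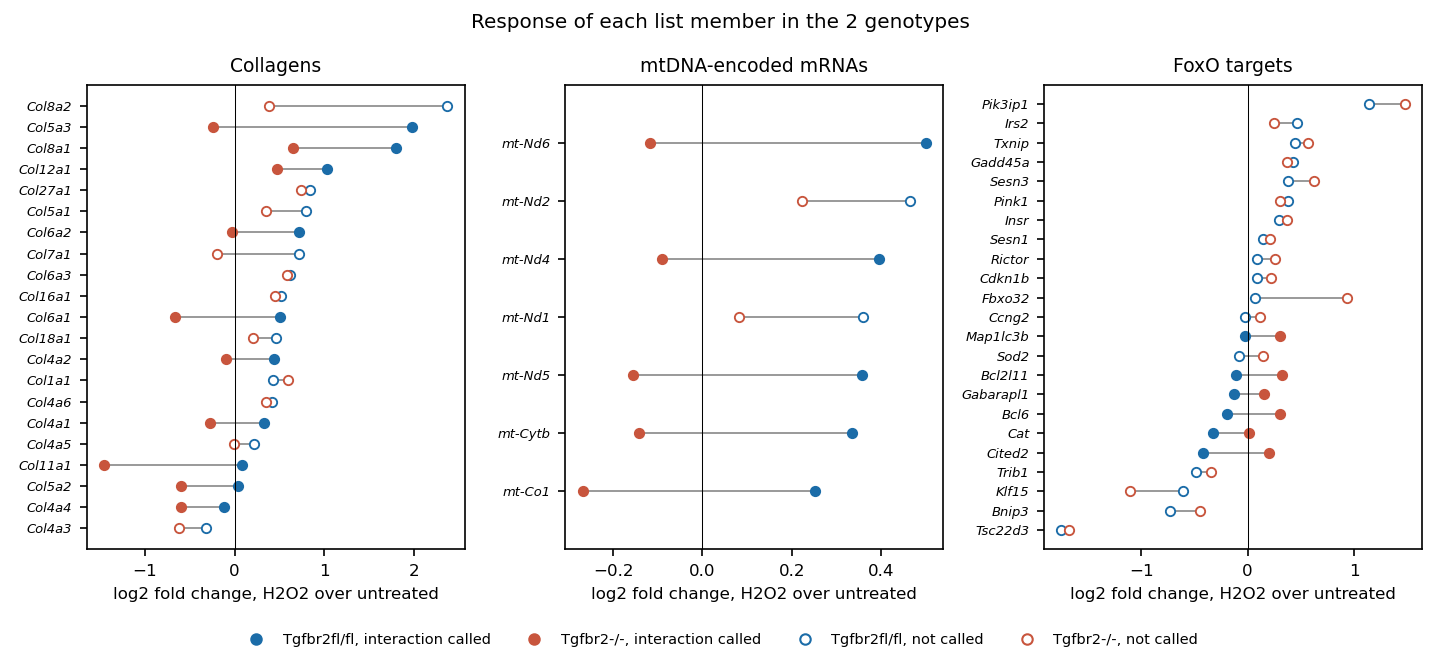
Log2 fold change of H2O2 over untreated (x axis) for each tested member of 3 further gene lists, in Tgfbr2fl/fl cells (blue) and Tgfbr2-/- cells (red) joined by a line, with filled points where the interaction was called. The 7 mtDNA-encoded mRNAs and 20 of 21 collagens have the red point to the left of the blue one, and 19 of 23 FoxO targets have it to the right.

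Growth factor and immediate early genes differed gene by gene. Hbegf, a ligand of the EGF receptor, was the 1 member called of the 9 tested EGF ligands and receptors (11.1%, against 10.2% of all genes). Of these, 6 were called without replicate 1 of untreated Tgfbr2fl/fl cells. Hbegf had 1229.8, 1223 and 1100.2 and 2338, 2428 and 2371 normalized counts in untreated and treated Tgfbr2fl/fl cells, and 1062, 1057 and 982 (untreated) and 1215, 1052 and 1204 (H2O2), which overlap, in Tgfbr2-/- cells (interaction -0.85 ± 0.09 (SE), adjusted p = 1.65e-07). Of 20 genes induced by or limiting MAPK signalling, 1 was called positive and 6 negative (background 3.90% and 6.28%), with a median of 0.11. Besides Il1rl1, Epha4, an ephrin receptor, rose from 3654, 3156 and 2925 to 4348, 4455 and 4380.1 in Tgfbr2fl/fl cells and had 1858, 1755 and 1732 (untreated) and 1775, 1592 and 1694 (H2O2) in Tgfbr2-/- cells. Dusp5, a nuclear phosphatase of ERK, fell from 293, 309 and 348 to 199, 196 and 189 in Tgfbr2-/- cells and had 188, 190.3 and 188 (untreated) and 187, 209 and 211 (H2O2) in Tgfbr2fl/fl cells. The cyclin Ccnd1 fell in both, from 1585, 1547 and 1735 to 517, 587 and 608 in Tgfbr2fl/fl and from 9554, 9244 and 9584 to 5164, 5043 and 4786 in Tgfbr2-/- cells. The interactions were -0.52 for Epha4, -0.80 for Dusp5 and 0.59 for Ccnd1.

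Of 26 immediate early genes 4 were called positive and 2 negative (background 3.90% and 6.28%), with a median of 0.18. The positive calls numbered 2 without replicate 1 of H2O2-treated or replicate 2 of untreated Tgfbr2fl/fl cells, or replicate 2 of H2O2-treated Tgfbr2-/- cells. Jun, a subunit of AP-1, fell from 1181, 1207 and 1223 to 1096, 1056 and 1058 in Tgfbr2fl/fl and rose from 1023, 945 and 858 to 1169.5, 1117 and 1162 in Tgfbr2-/- cells (interaction 0.46 ± 0.09 (SE), adjusted p = 0.000987). Egr1, a zinc finger factor, rose from 4404, 4002 and 4314 to 7898, 8043 and 7527 in Tgfbr2fl/fl and from 2735, 2563 and 2977 to 3898, 3805 and 3712 in Tgfbr2-/- cells (interaction -0.42). Ccn1, a matricellular protein, fell from 37148, 34612 and 30102 to 26192, 28451 and 28195 in Tgfbr2fl/fl and from 16027, 16534 and 14691 to 9199, 8384 and 9818 in Tgfbr2-/- cells (interaction -0.49). Dusp1, a phosphatase of stress kinases, fell in both, by 1.45 on the log2 scale in Tgfbr2fl/fl and by 1.08 in Tgfbr2-/- cells (interaction 0.37). Of 17 glucocorticoid targets Zbtb16 and Sgk1 alone were called (11.8%, against 10.2% of all genes), in opposite directions. Per1, Fkbp5 and Tsc22d3, named here after their values were seen, had responses of -1.75, -1.24 and -1.75 in Tgfbr2fl/fl and -1.54, -1.15 and -1.68 in Tgfbr2-/- cells, and no called interaction.

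Markers of tubular injury split in both directions, with 5 positive and 5 negative calls of 25 (background 3.90% and 6.28%) and a median of 0.02. Either count was as low as 3 with 1 library left out (positive without replicate 2 of treated or untreated Tgfbr2fl/fl cells, negative without replicate 1 or 2 of treated or untreated Tgfbr2-/- cells). Krt7, a keratin of simple epithelia, was counted at 50.5, 52.3 and 53.8 (untreated) and 60.9, 40.3 and 47 (H2O2) in Tgfbr2fl/fl cells and fell from 7006, 6228 and 7419 to 3186, 3004 and 2980.3 in Tgfbr2-/- cells (interaction -1.10 ± 0.19 (SE), adjusted p = 0.000277). Cd44, a hyaluronan receptor, had 7409, 6663 and 6112 (untreated) and 6384, 6776 and 6701 (H2O2) in Tgfbr2fl/fl cells and fell from 4766, 4717 and 4526 to 3339, 3062 and 3269.7 in Tgfbr2-/- cells (interaction -0.51). Sox9, a factor of regenerating tubule cells, fell from 129, 120.2 and 122 to 86.2, 75.4 and 94 in Tgfbr2fl/fl and rose from 70.1, 71.6 and 80.4 to 109, 117 and 87.5 in Tgfbr2-/- cells (interaction 1.04). Itgb6, the beta chain of the integrin that activates latent TGF-beta, fell from 1873, 1807 and 1498 to 1146, 1121 and 1146 in Tgfbr2fl/fl cells and had 937, 822 and 875 (untreated) and 798, 778 and 870.1 (H2O2) in Tgfbr2-/- cells (interaction 0.49). Havcr1, which encodes the injury marker KIM-1 and is named after its values were seen, fell in both, by 1.10 and 1.08 on the log2 scale, and its interaction of 0.01 (95% interval -0.44 to 0.47) did not pass.

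Genes of the oxidant defence were called in both directions. Of 32 targets of Nrf2, the factor that switches on antioxidant enzymes, 3 were called positive and 4 negative (background 3.90% and 6.28%), with a median of 0.0019. No call was positive by edgeR with counts summed over transcripts, without replicate 2 of treated or of untreated Tgfbr2fl/fl cells, or without replicate 1 of treated Tgfbr2-/- cells, and the negative calls ranged from 2 without the last of these to 7 without replicate 1 of untreated Tgfbr2fl/fl cells. Srxn1, sulfiredoxin, fell from 733, 788 and 795 to 545, 529 and 555 normalized counts in Tgfbr2fl/fl and from 3660.1, 3502 and 3482 to 1878, 2028 and 1857 in Tgfbr2-/- cells, where every library held more of it than any Tgfbr2fl/fl library (interaction -0.38 ± 0.09 (SE), adjusted p = 0.00501). Osgin1, an oxidative stress-induced growth inhibitor, rose from 255, 273 and 269 to 375, 410.1 and 400.0 in Tgfbr2fl/fl cells and had 875, 808 and 839 (untreated) and 952, 934 and 835 (H2O2) in Tgfbr2-/- cells (interaction -0.46). Slc7a11, the cystine carrier of glutathione synthesis, and Gsr, glutathione reductase, had interactions of -0.47 and 0.29, lost in 5 and in 4 of the 12 fits without 1 library. Of 22 enzymes that remove peroxide or superoxide, Cat (catalase) and Prdx2 (a peroxiredoxin) were called positive (background 3.90%). Without replicate 1 of untreated Tgfbr2fl/fl cells 3 of these enzymes were called negative. Cat fell from 1261, 1238 and 1403 to 1154, 929 and 1025 in Tgfbr2fl/fl cells and had 1798, 1932 and 1946 (untreated) and 1908, 1987 and 1822 (H2O2) in Tgfbr2-/- cells. The interactions of Cat and Prdx2 were 0.34 and 0.26, lost in 6 and in 8 of the 12 fits without 1 library.

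Of 34 targets of p53, the tumour suppressor that responds to DNA damage, 6 were called, all negative (background 6.28%), with a median of -0.08. Plk3, a stress-responsive kinase, had 283, 227 and 259 (untreated) and 258, 242 and 228 (H2O2) in Tgfbr2fl/fl and fell from 959, 909 and 926 to 487, 448 and 470.4 in Tgfbr2-/- cells (interaction -0.91 ± 0.12 (SE), adjusted p = 3.35e-06). Perp, a protein of desmosomes and apoptosis, had 2459.6, 2500.4 and 2183 (untreated) and 2392, 2339.7 and 2407 (H2O2) in Tgfbr2fl/fl and fell from 3598, 3491 and 3220.2 to 2429.5, 2259.7 and 2215 in Tgfbr2-/- cells (interaction -0.58). The death receptor Fas rose from 390.3, 358 and 351 to 447, 557 and 502 in Tgfbr2fl/fl cells and had 602, 679.6 and 607 (untreated) and 564, 574 and 598 (H2O2) in Tgfbr2-/- cells (interaction -0.58). Eda2r, a receptor of the TNF receptor family, rose in Tgfbr2fl/fl cells alone (0.31 against -0.08, interaction -0.39).

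The calls of the other lists stand against a background of 3.90% positive and 6.28% negative. In total, 26.7% of metallothionein and iron genes and of fatty acid synthesis genes were called, 25.7% of lysosome and autophagy genes and 21.1% of NF-kB targets, against 10.2% of all genes, and between 5.88% and 16.7% of the members of each remaining list. Positive and negative calls numbered 6 and 3 of 35 for lysosome and autophagy genes, 3 and 1 of 40 for interferon-stimulated genes, 3 and 1 of 25 for chemokines and cytokines, and 3 and 0 of 18 for heat shock chaperones. They numbered 0 and 4 of 15 for metallothioneins and iron genes, 1 and 3 of 15 for fatty acid synthesis, 1 and 3 of 19 for NF-kB targets and 0 and 3 of 20 for the unfolded protein response. For the integrated stress response they were 1 and 2 of 24, for YAP targets 1 and 2 of 21, for contractile genes 0 and 2 of 18 and for clock genes 1 and 0 of 17. Without replicate 1 of untreated Tgfbr2fl/fl cells the negative calls numbered 12 for the unfolded protein response and 5 for fatty acid synthesis, and the positive calls of lysosome and autophagy genes fell to 0 without replicate 2 or 3 of treated or replicate 2 of untreated Tgfbr2fl/fl cells.

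**Figure D5:**
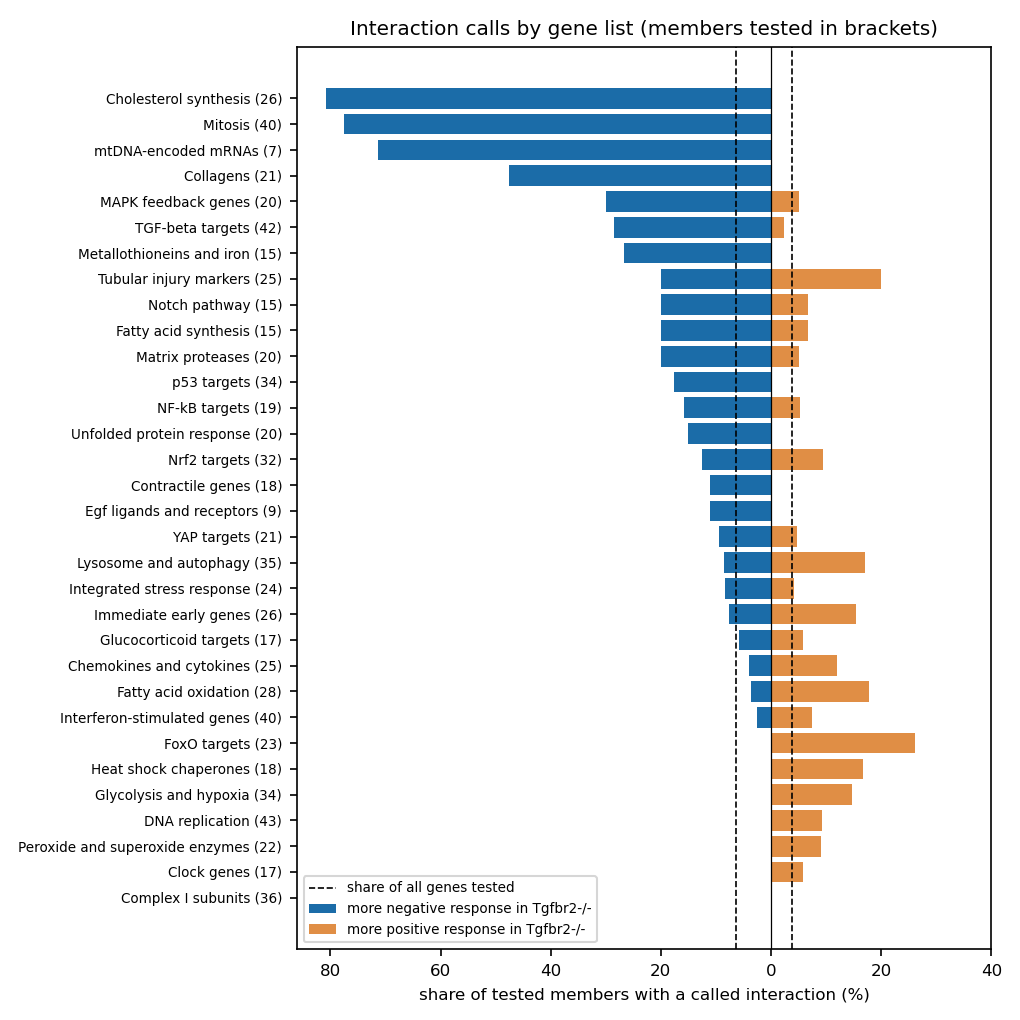
Share of tested members with a called interaction (x axis, percent) in each of the 32 gene lists, to the left for a more negative and to the right for a more positive response in Tgfbr2-/- cells, with dashed lines at the shares of all genes tested (6.28% and 3.90%). Cholesterol synthesis, mitosis, mtDNA-encoded mRNAs and collagens extend farthest to the left, and FoxO targets farthest to the right.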

How the data were processed

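RNA-seq was measured in 12 libraries of PT cells, 3 in each of 4 groups named from the labels. Per the submitters' processing notes and the methods, reads were trimmed with fastp, aligned with STAR to GRCm38.p6 and counted with featureCounts. The deposited values are raw counts per transcript, with 1 file per library. The files held 106332 transcripts, of which 104820 matched, by identifier, a GENCODE release later than the one used for alignment. Gene names and biotypes were taken from that later release. The 1512 unmatched held between 1.22% and 1.28% of counts. Transcripts of a gene overlap and can count the same read, so the deposited totals (51387170 to 69231661) are not read numbers, and each of 25514 genes was represented by its most counted transcript, summed across the 12 libraries.

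Genes were filtered on low counts (filterByExpr), normalized by TMM and fitted with edgeR 4.0.16 (glmQLFit, glmQLFTest; limma 3.58.1, R 4.3.3) in 1 model of 4 groups, with Benjamini-Hochberg adjustment over 12971 genes and a threshold of 0.05. Normalized counts are scaled to 17351835 counts per library. Alternatives were DESeq2 1.42.0, its size factors, other filters, counts summed over transcripts, a replicate block, each library left out and, chosen after seeing the data, no mtDNA-encoded genes. Tested on simulated data with a 2-fold interaction in 200 of 12815 genes, edgeR recovered 167 with 3 false calls, and DESeq2 recovered 161 with 10. Smaller interactions were not simulated, whereas the called interactions in the data had a median size of 0.40 on the log2 scale. Recovery of differences of that size was not tested.

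Named genes were, per class, the 5 protein-coding genes with the largest interaction (5 rises and 5 falls where 1 genotype responded) with a mean of at least 100 normalized counts in a group and above 10 in every group, up to 4 members per described list with the smallest adjusted p, and Tgfbr2. The members and the 32 lists were chosen with earlier results of these data known, and some genes are not reported here. Promoters were RefSeq windows of 250 bases before to 50 after a start (GRCm38.p6). Figures were drawn with matplotlib 3.10.9 in Python 3.11.15.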

Additional observations from a re-analysis of the deposited data

Results flagged for a closer look

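The responses of the 2 genotypes differed by the test of the difference itself, the interaction term of edgeR's quasi-likelihood fit, for 1321 genes at an adjusted p under 0.05. The genes named in the report that met this test are given here with that difference, the response in Tgfbr2-/- minus that in Tgfbr2fl/fl cells on the log2 scale. Groups held 3 libraries each and were not tested for outlying samples.

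For genes that responded in Tgfbr2fl/fl cells alone, the negative differences were -1.65 for Tnfrsf18, -1.55 for Il1rl1, -1.49 for Fgfr3, -1.38 for Tmem37, -1.13 for Il18r1, -0.96 for Plat, -0.85 for Hbegf and -0.81 for Mmp15. Closer to 0, these negative differences were -0.62 for mt-Nd6, -0.58 for Fas, -0.57 for Tgfbr2, -0.54 for Timp1, -0.52 for Epha4, -0.51 for mt-Nd5, -0.49 for mt-Nd4 and -0.47 for Slc7a11. Closer to 0, these negative differences were -0.46 for Osgin1, -0.44 for Notch1, -0.39 for Eda2r and -0.36 for Cpt1c. For genes that responded in Tgfbr2fl/fl cells alone, the positive differences were 0.26 for Prdx2, 0.29 for Gsr, 0.29 for Egln1, 0.34 for Cat, 0.35 for Acadl, 0.46 for Hk1, 0.48 for Hk2 and 0.49 for Itgb6. Larger positive values in this class were 0.86 for Sh2d4a, 0.89 for Tmem252, 0.97 for Socs2, 1.06 for Lrrc75b and 1.47 for Ltbp1.

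For genes that responded in Tgfbr2-/- cells alone, the negative differences were -2.69 for S100a7a, -2.28 for Scnn1a, -1.54 for Col11a1, -1.41 for Nrip3, -1.18 for Oas3, -1.10 for Krt7, -0.91 for Plk3 and -0.80 for Dusp5. Closer to 0, these negative differences were -0.75 for Cenpa, -0.74 for Hmmr, -0.70 for Fn1, -0.63 for Col5a2, -0.58 for Perp, -0.51 for Cd44 and -0.48 for Kif20b. For genes that responded in Tgfbr2-/- cells alone, the positive differences were 0.28 for Mcm4, 0.33 for Map1lc3b, 0.33 for Mcm2, 0.38 for Gins2, 0.43 for Bcl2l11, 0.51 for Slc25a20, 0.80 for Napsa and 0.80 for Ppargc1a. Larger positive values in this class were 0.83 for Tgtp2, 0.94 for Mylip, 1.11 for Lmcd1 and 1.17 for Olfm1.

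For genes that moved in opposite directions, the negative differences were -1.75 for Ccl17, -1.54 for Il6ra, -1.31 for Lrp4, -1.25 for Prkg2, -1.17 for Col6a1, -0.96 for Lfng, -0.90 for Serpine2 and -0.67 for Pmvk. Closer to 0, these negative differences were -0.65 for Jag2, -0.60 for Col4a1 and -0.52 for mt-Co1. For genes that moved in opposite directions, the positive differences were 0.46 for Jun, 0.50 for Bcl6, 0.62 for Cited2 and 1.04 for Sox9.

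For genes with a weaker response in Tgfbr2-/- cells, the negative differences were -1.63 for Mest, -1.50 for Cyp1b1, -1.40 for Plekha4, -1.29 for Lipg, -0.73 for Cyp51, -0.72 for Nsdhl and -0.42 for Egr1. For genes with a weaker response in Tgfbr2-/- cells, the positive differences were 0.33 for Dtx4, 0.37 for Dusp1, 0.39 for Aldoa, 0.59 for Ccnd1 and 1.81 for Zbtb16.

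For genes with a stronger response in Tgfbr2-/- cells, the negative differences were -1.34 for Kif17, -1.11 for Tagln, -1.10 for Sgk1, -1.04 for Id1, -0.49 for Ccn1, -0.47 for Kif11 and -0.38 for Srxn1. For genes with a stronger response in Tgfbr2-/- cells, the positive differences were 1.11 for Slit2.

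For genes whose response passed in neither genotype alone, the positive differences were 0.31 for E2f1.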

How the results depend on the processing

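Of the 96 genes that the fixed rule named, that had a called interaction and that are reported here, none reversed. Of these, 76 passed in every alternative run and 20 were lost in at least 1. Applied to every list, and with genes not reported here, the rule gave 131 genes. Of those, 94 passed in every alternative and 37 were lost in at least 1. DESeq2 called 1314 genes (1217 shared with the 1321) and edgeR with DESeq2 size factors 1314 (1247 shared), with 67.1% negative in place of 61.7%. Without a filter 1441 were called, with at least 10 counts in every library 1333, with counts summed over transcripts 962 (870 shared) and without mtDNA-encoded genes, an alternative chosen after seeing the data, 1317 (1312 shared). Summing over transcripts left 276 more positive genes and 9 with neither response, and without a filter the latter numbered 46. Requiring a fold of 1.5 for the interaction left 306 genes, and an unadjusted p under 0.01 with that fold gave 357. Where the response also had to reach a fold of 1.5, the classes held 200 (Tgfbr2fl/fl alone), 138 (Tgfbr2-/- alone), 2 (opposite), 43 (weaker), 17 (stronger) and 921 (neither). Leaving out 1 library gave between 833 and 1680 genes, 259 to 463 more positive and 526 to 1242 more negative, the highest without replicate 1 of untreated Tgfbr2fl/fl cells. The classes then ranged from 340 to 725 (Tgfbr2fl/fl alone), 221 to 419 (Tgfbr2-/- alone) and 84 to 188 (opposite). The others ranged from 110 to 271 (weaker), 65 to 101 (stronger) and 6 to 29 (neither). Negative calls ranged from 20 to 33 for mitosis, from 6 to 14 for collagens and from 3 to 5 for mtDNA-encoded mRNAs. The cause of these shifts was not tested.

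With the replicate number as a block 1202 genes were called (1187 shared). The numbers gave no sign of pairing: same-numbered libraries had correlations of their deviations between -0.101 and 0.0582 (0 of 18 over 0.1). Different-numbered libraries had correlations between -0.116 and 0.118 (3 of 36 over 0.1), and 2 of 12 libraries correlated best with their own number. With 3 libraries per group, this check cannot exclude that equal numbers mark a pair. Intervals cover the spread between 3 libraries of 1 line per genotype.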

Other observations

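Aqp1, the water channel of the proximal tubule, is named here after its values were seen. It rose from 7389, 7703 and 6217 to 14650, 14780 and 14400 normalized counts in Tgfbr2fl/fl cells and went from 4593, 4427 and 4243 to 5286, 5077 and 5038 in Tgfbr2-/- cells, with no overlap between treated and untreated libraries in either genotype (interaction -0.82, adjusted p = 4.45e-07 by edgeR). Of the other PT markers, Cdh16 and Pax2 had a called interaction. Kdr, a receptor of vascular endothelial growth factor and also named after its values were seen, had 133, 130.2 and 124 normalized counts in untreated and 22.3, 20.7 and 21.8 in treated Tgfbr2fl/fl libraries, and 584, 459 and 479.6 in untreated and 46.2, 38.5 and 59.7 in treated Tgfbr2-/- libraries (interaction -0.84, adjusted p = 0.0446 by edgeR). It made up nearly all of the summed level of the 7 endothelial markers, which was 131 to 142 and 479 to 591 in the untreated groups, and Pecam1 and Emcn did not exceed 3 counts in any library.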
